A study of Mus musculus with 2 samples.

Results

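Krt7, Krt8, Krt18, Krt19 and Krt20 are the keratins usually named as markers of simple, single-layered epithelium. They were taken by gene symbol from the gene table of a single-cell RNA sequencing series and make up 5 of its 32285 genes, and 5 of its 53 keratin genes. The series profiled the esophageal epithelium of C57BL/6 mouse embryos at E18.5, in 2 droplet libraries, labelled wild type and p63-KO. The wild-type library carries the genotype label p63-CreER, so that its cells hold the targeted p63 allele as well, and the p63-KO library carries p63-CreER/p63-CreER, both copies of that allele. p63, encoded by Trp63, is a transcription factor that stratified epithelia need for their basal cells, and the wild-type cells came from littermates. Each library held some cells with Xist RNA and others with Y-linked RNA and so came from 2 or more embryos, and with 1 library per genotype there was no replicate and no test between genotypes.

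Keratins are intermediate filament proteins that assemble as pairs of a type I and a type II protein. Krt8 (type II) and Krt18 (type I) are the main pair of simple epithelia, Krt7 (type II) is frequent in ducts and glands, Krt19 (type I) is found in simple epithelia and in some basal layers, and Krt20 (type I) is best known from intestine, urothelium and Merkel cells. The lining of the early esophagus is a columnar epithelium rich in such keratins, and during development it is replaced by a stratified epithelium with Krt5 and Krt14 in basal cells and Krt4 and Krt13 above them.

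After filtering (500 genes and 1000 UMIs or more per barcode, and no more than 10% of them mitochondrial; a UMI, or unique molecular identifier, marks 1 counted transcript) and removal of called doublets, 5365 wild-type and 1680 p63-KO cells were epithelial-like by fixed markers. Their median depth was 11053 and 25106 UMIs, so the p63-KO cells were the deeper ones. The 2 libraries shared 5 of the barcodes kept. The other p63-KO cells included 514 fibroblast-like cells, against 10 in the wild-type library. Trp63 had 303 counts per 1000000 UMIs (CPM) in the wild-type cells and 118 in those of p63-KO. Which part of the gene the allele changes is not given in the sources used here, so these counts of transcript ends do not check the labels. Levels below are CPM of UMIs summed over cells, with exact 95% Poisson intervals that cover counting error only. The kit counts 3' ends, so no value was scaled by gene length.

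Each library's epithelial-like cells were clustered on their own, with every keratin gene left out, so no keratin shaped the clusters in which keratins are described. A marker counted as found when at least 25% of a cluster's cells held it. In the wild-type library, clusters 1 (1479 cells) and 6 (465 cells, basal-like) had all 10 basal markers found, and cluster 1 was left unnamed. Cluster 4 carried markers of DNA replication and clusters 5 and 7 those of mitosis. Cluster 2 (841 cells, led by Slit3, Krtdap and Notch1) was left unnamed and had 9 of 10 suprabasal markers found. Cluster 3 was suprabasal-like (675 cells), cluster 8 superficial squamous-like (393 cells) and cluster 9 ciliated-like (59 cells).

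The p63-KO cells fell into other states. Cluster 1 (306 cells, led by Asprv1, Ecm1 and Sprr3) was superficial squamous-like on only 4 of 12 markers at least 2-fold above the rest, and is called here the Asprv1-led cluster. Clusters 2 (261 cells, led by Nrg3 and Chgb) and 8 (81 cells, led by Gzma) were neuroendocrine-like, clusters 7 (96 cells) and 9 (60 cells) ionocyte-like, cluster 6 mucous-like (128 cells) and cluster 10 ciliated-like (56 cells). Cluster 3 (257 cells) carried mitosis markers, and clusters 4 (251 cells, led by Cryab and Sema3a) and 5 (184 cells, led by Muc5b and Agr2) were left unnamed.

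The type II genes Krt7 and Krt8 and the type I gene Krt18 lie on chromosome 15, and the type I genes Krt19 and Krt20 on chromosome 11 (GENCODE M21, mm10). Krt8 (chr15:101996698-102004482, minus strand) and Krt18 (chr15:102028180-102032027, plus strand) point away from each other across 23697 bases that hold 0 annotated genes of any type. Krt7 lies at chr15:101411043-101430313 (plus strand), Krt19 at chr11:100140810-100148665 and Krt20 at chr11:99428403-99438150 (both minus strand). The promoters of the 3 chromosome 15 genes are shown because the levels of Krt8 and Krt18 went together over the clusters of both libraries, while those of Krt7 did so only in wild type. Each runs from 250 bases before to 50 after the RefSeq start (GRCm38.p6), at chr15:102004293-102004592 on the minus strand for Krt8, chr15:102027966-102028265 on the plus strand for Krt18 and chr15:101412153-101412452 on the plus strand for Krt7. Capitals mark matches, on either strand, to a TATA box (TATAAA), a GC box (GGGCGG) or an AP-2 motif (GCCNNNGGC).
Krt8: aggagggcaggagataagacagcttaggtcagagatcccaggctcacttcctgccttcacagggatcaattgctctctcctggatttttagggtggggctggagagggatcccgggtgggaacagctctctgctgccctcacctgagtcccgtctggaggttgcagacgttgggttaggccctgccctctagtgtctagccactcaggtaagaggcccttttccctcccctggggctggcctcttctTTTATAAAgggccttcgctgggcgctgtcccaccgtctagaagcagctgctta
Krt18: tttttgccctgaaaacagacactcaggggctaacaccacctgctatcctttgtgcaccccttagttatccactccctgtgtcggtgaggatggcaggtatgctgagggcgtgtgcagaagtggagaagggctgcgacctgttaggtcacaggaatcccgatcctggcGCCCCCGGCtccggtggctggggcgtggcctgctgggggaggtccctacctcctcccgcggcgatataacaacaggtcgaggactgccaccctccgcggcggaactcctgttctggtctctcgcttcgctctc
Krt7: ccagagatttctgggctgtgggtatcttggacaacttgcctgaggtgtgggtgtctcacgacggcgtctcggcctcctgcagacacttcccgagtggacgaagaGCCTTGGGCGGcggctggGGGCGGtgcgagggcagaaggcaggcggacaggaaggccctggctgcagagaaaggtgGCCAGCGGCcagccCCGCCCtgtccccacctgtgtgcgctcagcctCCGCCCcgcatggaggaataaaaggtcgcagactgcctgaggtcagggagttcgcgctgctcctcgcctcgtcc

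The 3 windows held different matches. Krt8 had 2 overlapping matches to the TATA box on opposite strands, which begin 3 and 1 bases before the start. Krt18 had 1 AP-2 match, and Krt7 had 4 GC boxes and 2 AP-2 matches, of which 1 of each overlap. The RefSeq starts of these 3 genes lie inside the GENCODE spans given above, and so does the whole Krt7 window. The Krt20 window, not shown, had 1 TATA box that begins 29 bases before the start. Krt19 is not in the promoter table. Over all 32841 promoters of that table, 13.6% held a TATA box, 35.7% a GC box and 16.6% an AP-2 motif. An AP-1 motif (TGANTCA), a grainyhead motif (AACCNGTT), a forkhead motif (TGTTTAC) and the p53 family half-site matched in none of the 4 windows and in 7.81%, 2.09%, 3.65% and 8.36% of all promoters. These are matches of letters and not measured binding.

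In the wild-type epithelium every one of the 5 keratins had its highest level in the superficial squamous-like cluster 8. Among the 4 abundant members Krt18 and Krt7 varied most between clusters and Krt19 least. Krt7, in order of cluster number from 1 to 9, had 210, 341, 862, 163, 176, 144, 130, 2448 and 483 CPM. Thus cluster 8 stood alone at the top, the suprabasal-like cluster 3 came next, and the lowest 4 clusters, 5, 4, 6 and 7, overlapped in their intervals with the neighbour in that order, although cluster 5 lay above clusters 6 and 7 and cluster 4 above cluster 7. Between the extremes, clusters 8 and 7, the fold was 18.8 (95% interval 17.6 to 20.1), and 11.4 with a coarser clustering (resolution 0.3).

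Krt8, the type II member of the main simple pair, had 156, 630, 944, 108, 317, 177, 152, 1328 and 889 CPM in clusters 1 to 9. It exceeded Krt7 in clusters 2, 3, 5, 6, 7 and 9 and lay below it in clusters 1, 4 and 8. The lowest level was in the DNA-replication cluster 4, 12.3-fold (11.4 to 13.3) below cluster 8. Clusters 3 and 9 overlapped in their intervals.

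Its type I partner Krt18 was far scarcer, with 39.5, 111, 211, 21.2, 48.6, 29.6, 24.6, 566 and 294 CPM. It still had the widest range among the 4 keratins found in every cluster, 26.7-fold (22.6 to 31.8) between clusters 8 and 4. Clusters 6, 7 and 4 overlapped at the bottom of the order.

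Krt19 was the most abundant simple keratin by CPM in 7 of 9 wild-type clusters and had the narrowest range. Its levels were 694, 872, 1270, 559, 831, 469.7, 510.5, 2087 and 778 CPM. That is 4.44-fold (4.24 to 4.65) from the highest, cluster 8, to the lowest, the basal-like cluster 6. Even this lowest level was above that of Krt7 in every cluster but 3, 8 and 9, and above that of Krt8 in every cluster but 2, 3, 8 and 9.

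Krt20 was rare in every wild-type cluster. It had 15.9 CPM (13.4 to 18.8) in cluster 8, 7.87 in the ciliated-like cluster 9 and 7.28 in cluster 3, and between 1.64 and 2.83 CPM in clusters 1, 2, 4, 5 and 7. Cluster 6 held 0 Krt20 UMIs, which allows up to 0.684 CPM at 3 counts over the cluster. Against that floor cluster 8 was at least 23.2-fold higher, and 18.7-fold is the exact 95% lower bound.

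**Figure D1:**
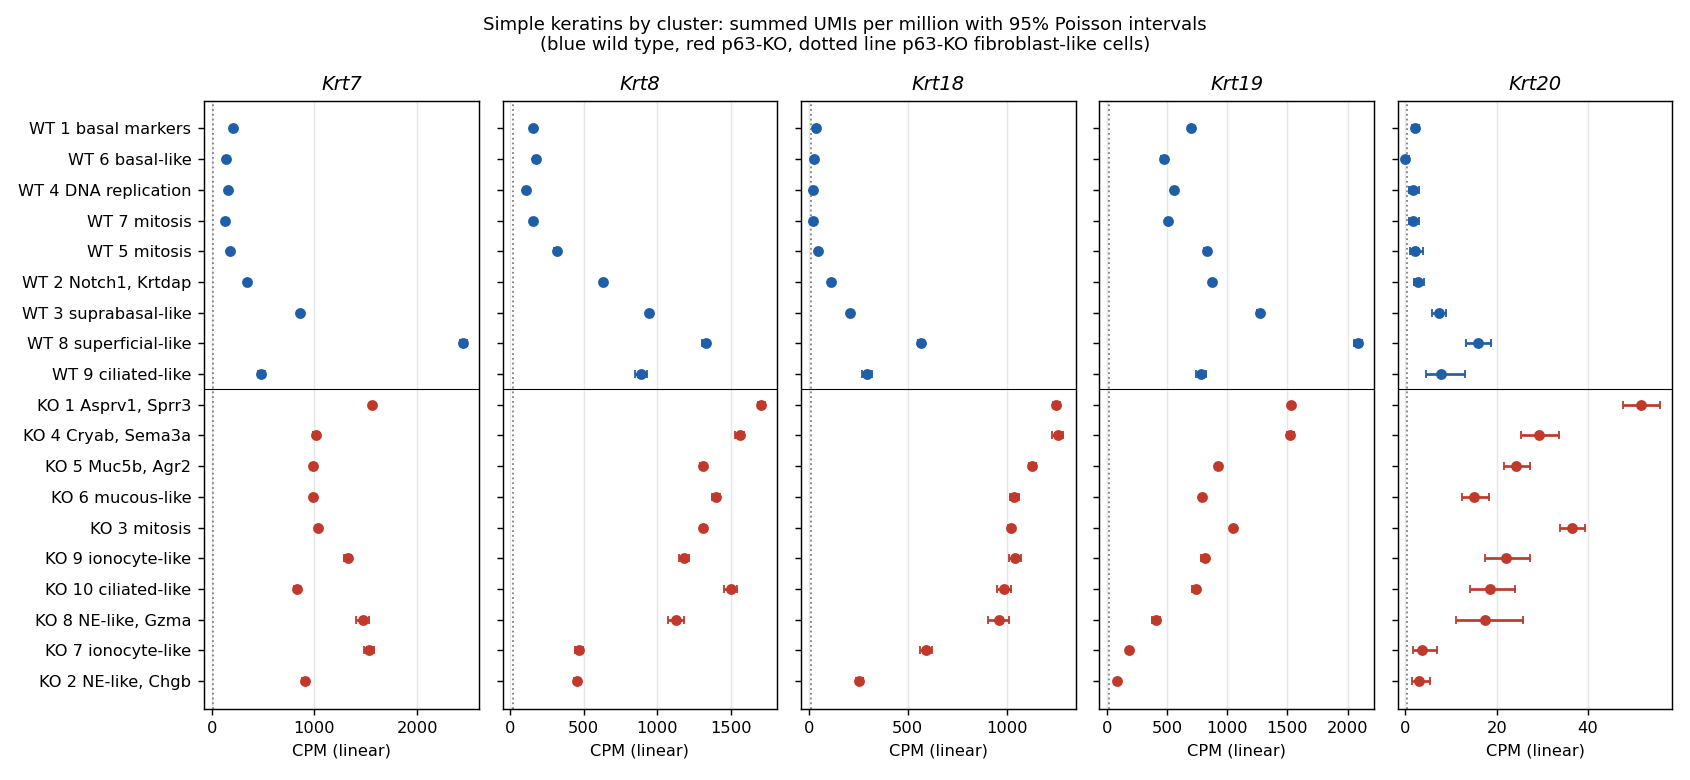
Level of each simple keratin (CPM, linear axis) in every epithelial cluster of the wild-type and p63-KO libraries, with exact 95% Poisson intervals. NE stands for neuroendocrine. In wild type all 5 keratins peak in the superficial-like cluster, while in p63-KO Krt8, Krt18 and Krt19 are high in most clusters and low in neuroendocrine-like cluster 2 and ionocyte-like cluster 7.

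Set directly against the basal-marker cluster 1, the superficial squamous-like cluster had 11.7-fold more Krt7, 8.50-fold more Krt8, 14.3-fold more Krt18, 3.01-fold more Krt19 and 7.65-fold more Krt20 (5.13 to 11.8). All 5 members were therefore at least 2-fold higher, a mark that 13.3% of 11162 measured genes passed upwards and 31.0% downwards. Between clusters 8 and 1, Krt20 reached the minimum of 5 CPM set for a measured gene only in cluster 8. The differentiation keratins Krt13 and Krt4 moved the same way, by 19.3-fold and 15.3-fold. The basal pair moved the other way, with 4.89-fold less Krt5 and 31.5-fold less Krt14. Krt15, the most abundant keratin of cluster 1, was 1.54-fold higher (1.53 to 1.55) in cluster 8. Median depth was 17626 UMIs in cluster 8 and 9485 in cluster 1, and the part of depth in these folds was not tested.

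The wild-type ciliated-like cluster 9 also had all 10 basal and all 8 mitosis markers found, a median of 25212 UMIs and 460 CPM of Krt5. Whether these 59 cells include doublets with other epithelial cells was not tested.

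The simple keratins differed in how far they varied across the p63-KO states. Krt7 was nearly even, Krt8 and Krt18 were even except in 2 clusters, and Krt19 varied widely. Krt7 had 1562, 908, 1034, 1014, 990, 989, 1532, 1470, 1324 and 831 CPM in clusters 1 to 10. Its highest levels were in the Asprv1-led cluster 1, ionocyte-like cluster 7 and neuroendocrine-like cluster 8, and the intervals of cluster 7 overlap with those of both others. The whole range was 1.88-fold (1.80 to 1.96), from cluster 1 to the ciliated-like cluster 10, but 3.72-fold with a finer clustering (resolution 1.0).

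For Krt8 the p63-KO levels were 1705, 454, 1313, 1559, 1309, 1397, 466, 1125, 1181 and 1498 CPM. Neuroendocrine-like cluster 2 and ionocyte-like cluster 7 stood apart at the low end and overlapped with each other, while the other 8 clusters lay between 1125 and 1705 CPM. The range was 3.76-fold (3.57 to 3.95), and 8.34-fold with the finer clustering.

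Krt18 repeated that pattern, with 1251, 257, 1023, 1257, 1130, 1038, 592, 959, 1042 and 988 CPM. Clusters 4 and 1 were highest and overlapped, and clusters 7 and 2 were again the lowest, with 4.90-fold (4.58 to 5.25) from end to end and 8.50-fold with the finer clustering.

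Krt19 had 1530, 84.6, 1050, 1525, 926, 790, 183, 405, 814 and 737 CPM, and so spanned 18.1-fold (16.2 to 20.3), or 34.6-fold with the finer clustering. Both neuroendocrine-like clusters and ionocyte-like cluster 7 were the lowest, and clusters 1 and 4 the highest. Among the 4 abundant members this keratin had the narrowest range in wild type and the widest in p63-KO.

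Krt20 was highest in the Asprv1-led cluster 1, with 51.7 CPM (47.8 to 55.8), next in the mitosis cluster 3 with 36.6, and lowest in clusters 7 and 2, with 3.64 and 3.01 CPM. The other 6 clusters lay between 15.1 and 29.3 CPM. Only 11 UMIs stand behind the value in cluster 2.

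Neuroendocrine-like cluster 2 had 9 of 10 neuroendocrine markers, such as Chgb, Scg2 and Sst. Krt7 was its leading simple keratin and the one that differed least from the other p63-KO cells. Against the other p63-KO epithelial-like cells its Krt7 was 1.27-fold lower (1.23 to 1.31), Krt8 3.05-fold, Krt18 4.25-fold, Krt20 10.3-fold (5.76 to 20.7) and Krt19 12.6-fold (11.3 to 14.1) lower. So 4 of 5 members were at least 2-fold lower, where 17.8% of 12639 measured genes were lower to that extent and 24.4% higher. Krt20, 1 of these 4, reached 5 CPM only in the other cells. The stratified keratins were lower still, Krt15 by 61.0-fold, Krt4 by 61.8-fold and Krt13 by 74.3-fold.

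Ionocyte-like cluster 7, which held 6 of 7 markers such as Stap1 and Atp6v0d2 and had 3 of 8 mitosis markers at least 2-fold higher, also had Krt7 as its leading simple keratin. Krt7 was 1.36-fold higher (1.32 to 1.41) than in the other p63-KO cells, while Krt18 was 1.80-fold, Krt8 2.94-fold, Krt19 5.70-fold and Krt20 8.40-fold (4.42 to 18.4) lower. Hence 3 of 5 members were at least 2-fold lower, against 15.8% of 11693 measured genes lower and 11.1% higher. Krt20, 1 of these 3, again reached 5 CPM only in the other cells. The second ionocyte-like cluster 9 did not share this: it had 1181 CPM of Krt8 and 814 of Krt19. Its cells had a median of 57487 UMIs, against 24489 in cluster 7, and 8 of 9 mucous markers found, against 5 in cluster 7. As many were found in p63-KO clusters 3, 5, 6 and 10, and 0 of them were at least 2-fold above the rest in cluster 9. Whether doublets have a part in that difference was not tested.

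The 2 neuroendocrine-like clusters differed as well. The Gzma-led cluster 8 had 1125 CPM of Krt8 and 959 of Krt18, against 454 and 257 in cluster 2, and 405 against 84.6 CPM of Krt19. Cluster 8 also had 1172 CPM of the stratified keratin Krt15, against 84.3 in cluster 2.

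RNA free in the droplets sets a lower limit to what can be read in such cells. In the 514 fibroblast-like cells of p63-KO, a type without keratin filaments, Krt7 had 15.9 CPM, Krt8 17.5, Krt18 13.1, Krt19 19.3 and Krt20 0.350, between 1.18% and 1.89% of the p63-KO epithelial levels. In neuroendocrine-like cluster 2, Krt7 was 57.0-fold, Krt8 25.9-fold, Krt18 19.5-fold and Krt19 4.39-fold above the fibroblast-like cells. Krt15, Krt13 and Krt4 were only 1.20-fold, 1.07-fold and 1.22-fold above them and are read as background there. In the wild-type library the 10 fibroblast-like cells held 0 UMIs of all 5 keratins, which allows up to 61.5 CPM each at 3 counts (75.6 CPM at the exact 95% limit), so the same limit could not be set closely for the lowest wild-type values of Krt18 and Krt20.

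Between the libraries, over all epithelial-like cells, Krt18, Krt20 and Krt8 were higher in p63-KO, Krt7 was moderately higher and Krt19 was nearly level. Krt18 had 149 CPM in wild type and 1049 in p63-KO, 7.02-fold higher (6.88 to 7.17). Krt8 had 532 and 1338 CPM, 2.51-fold higher (2.48 to 2.54). Krt20 had 4.78 and 29.7 CPM, 6.21-fold higher (5.52 to 6.99). Thus both members of the Krt8 and Krt18 pair were higher, the scarcer partner by more.

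Krt7 had 614 CPM in wild type and 1140 in p63-KO, 1.86-fold higher (1.84 to 1.88), and Krt19 960 and 1016 CPM, 1.06-fold higher (1.05 to 1.07). Of the 5 members, 3 were at least 2-fold higher and 0 lower, and among 11766 measured genes 14.1% were higher and 7.87% lower to that extent. Krt20, 1 of the 3, had 4.78 CPM in wild type. It thus reached the minimum of 5 CPM set for a measured gene only in p63-KO. The median log2 ratio (with 1 CPM added) was 1.33 over the members and -0.03 over all measured genes. Krt7 passed 2-fold in other settings, with a log2 ratio of 1.32 when every cell weighed equally, 1.33 in cells thinned to 2000 UMIs and 1.24 in cells with Y-linked RNA only, and was further below it in others, with 0.57 without cell cycle clusters and 0.79 in cells with Xist RNA only. Without the clusters of high depth (p63-KO 3, 5, 6 and 9, wild-type 8 and 9), the log2 ratio was 1.90 for Krt7, 3.64 for Krt18 and 3.03 for Krt20, and these cells were left out only after the data had been seen.

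The levels within single cells showed the same contrast. The median cell had 216 CPM of Krt7 in wild type and 1065 in p63-KO, and the median for Krt8 was 241 and 1256 CPM. For Krt18 the median wild-type cell had 0 CPM and the median p63-KO cell 1026. Krt19 differed less, with medians of 694 and 947 CPM, although its lower decile was 170 CPM in wild type, against 52.2 in p63-KO.

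The wild-type superficial cluster remained the upper mark for 2 of the genes. No p63-KO cluster exceeded its Krt7 (2448 CPM) or its Krt19 (2087 CPM). For Krt18, 8 of 10 p63-KO clusters had intervals above its 566 CPM and 1 below. For Krt8 and Krt20, 4 of 10 clusters were above it, with 4 and 2 below.

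The ciliated-like cells were found in both libraries and allowed a comparison within 1 named state. Krt18 was 3.36-fold higher (3.07 to 3.68) in the p63-KO ciliated-like cluster, at 988 against 294 CPM, and Krt20 2.36-fold higher (1.32 to 4.48). Krt7 and Krt8 were 1.72-fold and 1.69-fold higher, and Krt19 had 737 and 778 CPM with an interval of the fold that includes 1 (0.887 to 1.011). This is 2 of 5 members at least 2-fold higher, with 11.1% of 12398 measured genes higher and 7.78% lower. The markers of other states in the wild-type cluster, given above, touch this comparison. When both libraries were clustered jointly, the ciliated-like cluster took 23 wild-type and 53 p63-KO cells, fewer than the 59 and 56 compared here.

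In cells thinned at random to 2000 UMIs each, which removes the difference in depth, Krt18 was the keratin whose share of cells differed most in fold among the 4 common ones. Of the wild-type cells (5282 thinned) 15.3% had a Krt18 UMI, and of the p63-KO cells (1657 thinned) 78.6% (42.1% and 97.4% without thinning). The shares were 42.7% and 84.7% for Krt7 (79.5% and 98.5% unthinned), and 44.3% and 85.9% for Krt8 (78.1% and 98.5%). Krt19 was found in 71.1% and 70.5% of thinned cells (95.3% and 91.3%), and Krt20 in 0.435% and 4.04% (3.52% and 34.9%). In thinned fibroblast-like cells of p63-KO, with a median of 10796 UMIs before thinning, the shares were 2.17% for Krt7, 2.95% for Krt8, 1.38% for Krt18, 4.72% for Krt19 and 0.197% for Krt20. The p63-KO shares of all 5 keratins thus lay above those of cells that should lack them.

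**Figure D2:**
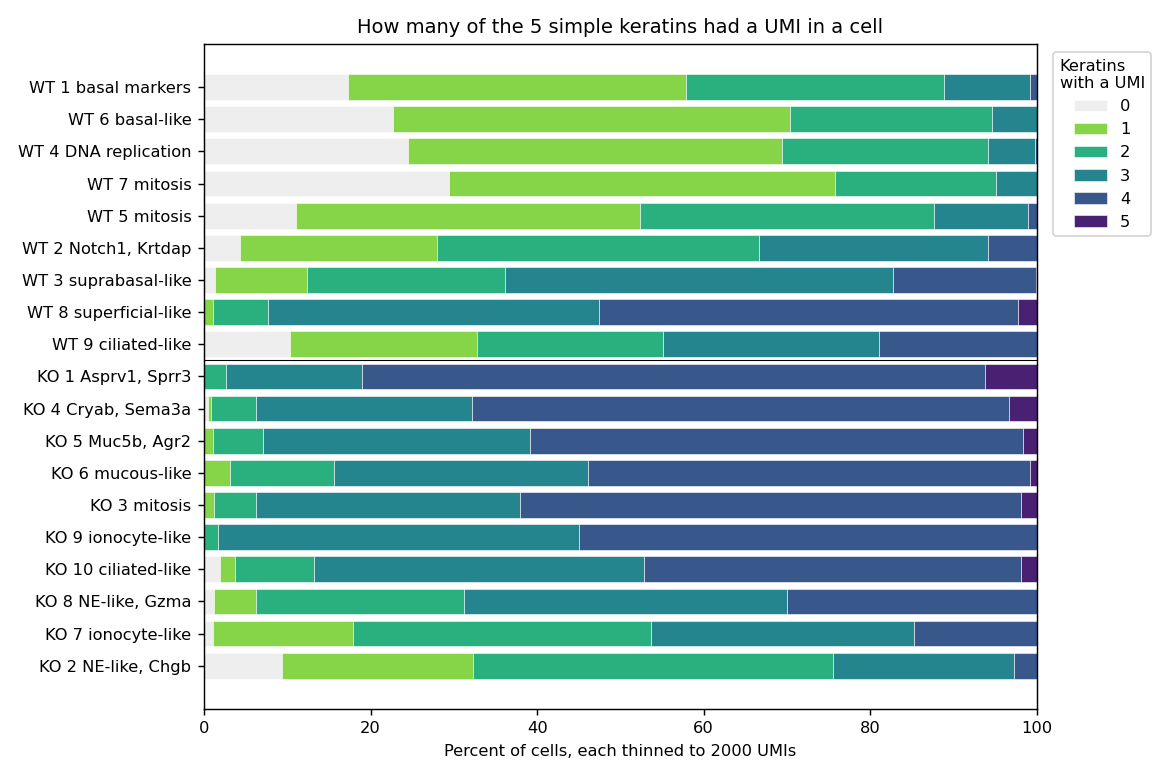
Percent of cells in each epithelial cluster with a UMI of 0 to 5 of the simple keratins, after every cell was thinned to 2000 UMIs. Cells without any of them made up 0% to 29.4% in wild-type clusters and 0% to 9.34% in p63-KO clusters.

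Filament-forming pairs in the same cell were also counted. A Krt8 and a Krt18 UMI came together in 10.7% (9.89 to 11.6) of the thinned cells of wild type, against 70.6% (68.4 to 72.8) for p63-KO. Within wild type the share was 55.1% in the superficial squamous-like cluster and 0.566% in the DNA-replication cluster 4. In p63-KO it was lowest in neuroendocrine-like cluster 2, at 20.6%, and highest in cluster 1, at 87.2%. Cells without a UMI of any simple keratin made up 13.6% in wild type, against 1.69% in p63-KO.

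Krt7 without Krt19 marked particular p63-KO states. It was seen in 66.1% of thinned cells in cluster 2, 70.5% in cluster 7 and 56.3% in cluster 8, against 23.3% over all p63-KO and 9.01% over all wild-type cells. The reverse, Krt19 without Krt7, had a share of 9.05% in p63-KO and 37.4% in wild type. Krt7 UMIs per Krt19 UMI numbered 0.639 in wild type, 1.12 in p63-KO, 10.7 in cluster 2 and 8.35 in cluster 7. In wild type only cluster 8 had more Krt7 than Krt19, with 1.17.

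In nearly all wild-type cells the simple keratins stood beside stratified ones. A member was found without Krt5, Krt14, Krt15, Krt13 or Krt4 in 0.0379% of the cells in wild type, but 18.8% in p63-KO. Those p63-KO cells lay in a few states, with 70.8% of cluster 2, 71.6% of cluster 7, 47.5% of cluster 8 and 26.4% of the ciliated-like cluster 10. In clusters 1, 3 and 4 it was 0 of 305, 256 and 239 cells, which allows shares of up to 1.20%, 1.43% and 1.53% (exact 95% interval). Krt8 together with Krt15, a type I keratin of stratified epithelia, had a share of 44.2% in wild type and 71.4% in p63-KO. Krt8 together with Krt5 had 27.6% in wild type and was seen in 0 of 1657 cells in p63-KO, which allows up to 0.222%.

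**Figure D3:**
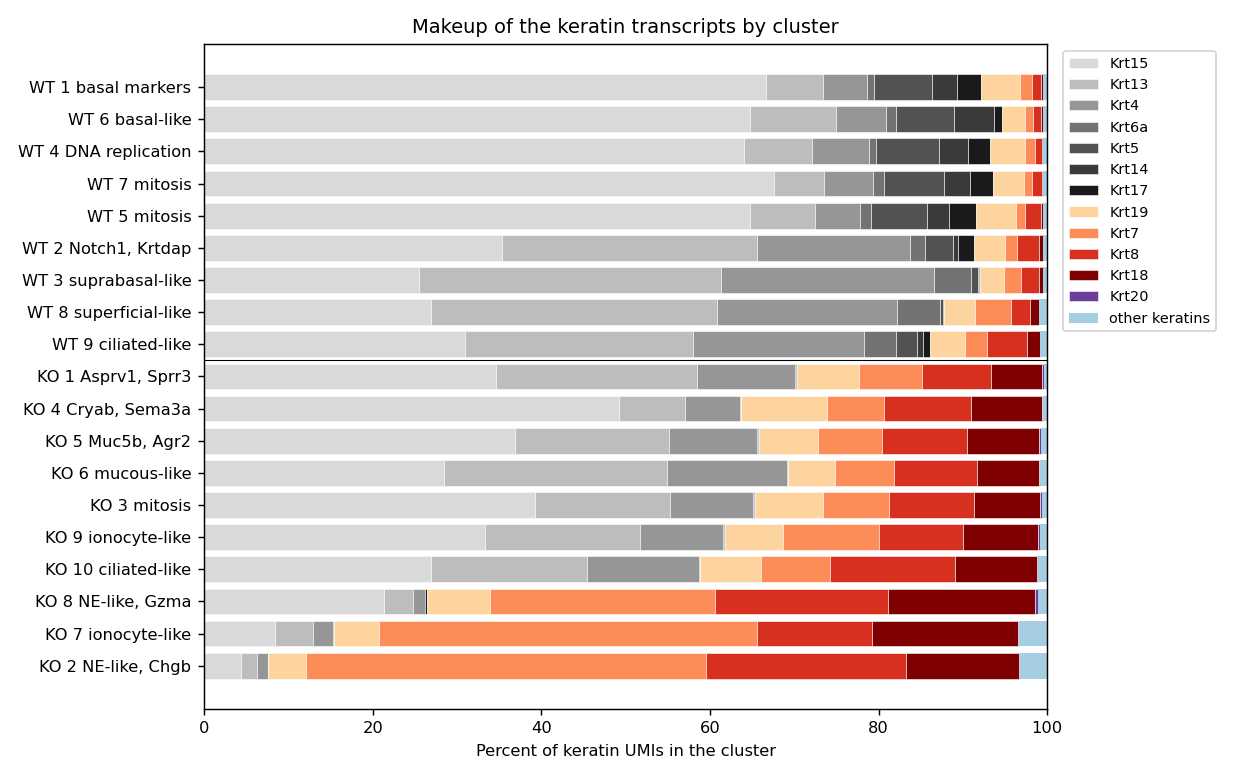
Makeup of the keratin UMIs in each epithelial cluster, as percent of all UMIs of 52 type I and type II keratin genes, for the wild-type and p63-KO libraries. The 5 simple keratins make up 4.82% to 13.04% in wild-type clusters and 29.3% to 89.1% in p63-KO clusters.

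As a share of counted keratin transcripts, the 5 members made up 8.45% (8.41 to 8.49) in wild type and 33.9% (33.8 to 34.0) in p63-KO. Both terms of this share differed: the members summed to 2260 CPM in wild type and 4572 in p63-KO, and all keratins to 2.67% and 1.35% of UMIs. In wild type the share was lowest in the basal-like cluster 6, at 4.82%, and highest in the ciliated-like cluster 9, at 13.04%. In p63-KO it was 89.1% in cluster 2, 81.3% in cluster 7 and 72.4% in cluster 8, and between 29.3% and 40.1% in the other 7 clusters. Keratins made up only 0.191% of all UMIs in cluster 2, and there 47.4% of keratin UMIs were Krt7.

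The balance within the Krt8 and Krt18 pair shifted in every p63-KO state. In wild type there were 3.56 Krt8 UMIs per Krt18 UMI (3.48 to 3.64), with clusters between 2.35 (cluster 8) and 6.53 (cluster 5). In p63-KO there were 1.28 (1.26 to 1.29), with clusters between 0.786 (cluster 7) and 1.77 (cluster 2), all below the lowest wild-type cluster. Type II keratins as a whole made up 28.1% of keratin UMIs in wild type and 29.2% over p63-KO, but 73.6% in neuroendocrine-like cluster 2. Ratios between genes are of counted 3' ends, and how well each transcript's end is captured was not measured.

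Most of the other measured keratins went the other way. Outside the 5 members, 17 of 47 type I and type II keratins were measured (at least 5 CPM in either library). Of these, p63-KO had 12 lower by 2-fold or more, 0 higher and 5 neither (median log2 ratio -1.71). Over all measured genes 7.87% were lower and 14.1% higher. Krt5, Krt14, Krt1, Krt6b, Krt33b, Krt34 and Krt78 reached 5 CPM only in wild type. The basal pair was nearly absent from p63-KO, with 768 and 0.236 CPM of Krt5 and 298 and 0.932 CPM of Krt14. Krt6a had 876 and 15.2 CPM, and Krt17 284 and 5.51 CPM. The abundant Krt15, Krt13 and Krt4 were lower by 2.15-fold, 2.76-fold and 3.28-fold and stayed the most abundant keratins of p63-KO. By type, 1 of 9 measured type II keratins was at least 2-fold higher (Krt8) and 6 lower, and 2 of 13 type I keratins were higher (Krt18 and Krt20) and 6 lower.

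No measured keratin gene around the members was 2-fold higher in p63-KO. The 22 keratin genes between Krt7 and Krt8 span 566384 bases, 6 of them were measured, and all 6 were lower by 2-fold or more, with log2 ratios from -9.28 to -1.49. Of these 6, only Krt6a and Krt4 reached 5 CPM in both libraries. Of 25 other keratin genes on chromosome 11, 10 were measured, of which 6 were at least 2-fold lower and 0 higher, up to a log2 ratio of 0.82. Among these 6, Krt14, Krt33b and Krt34 reached 5 CPM only in wild type. Over all measured genes, 7.87% were lower and 14.1% higher to that extent. Krt15, the keratin gene nearest to Krt19, was among the lower ones.

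**Figure D4:**
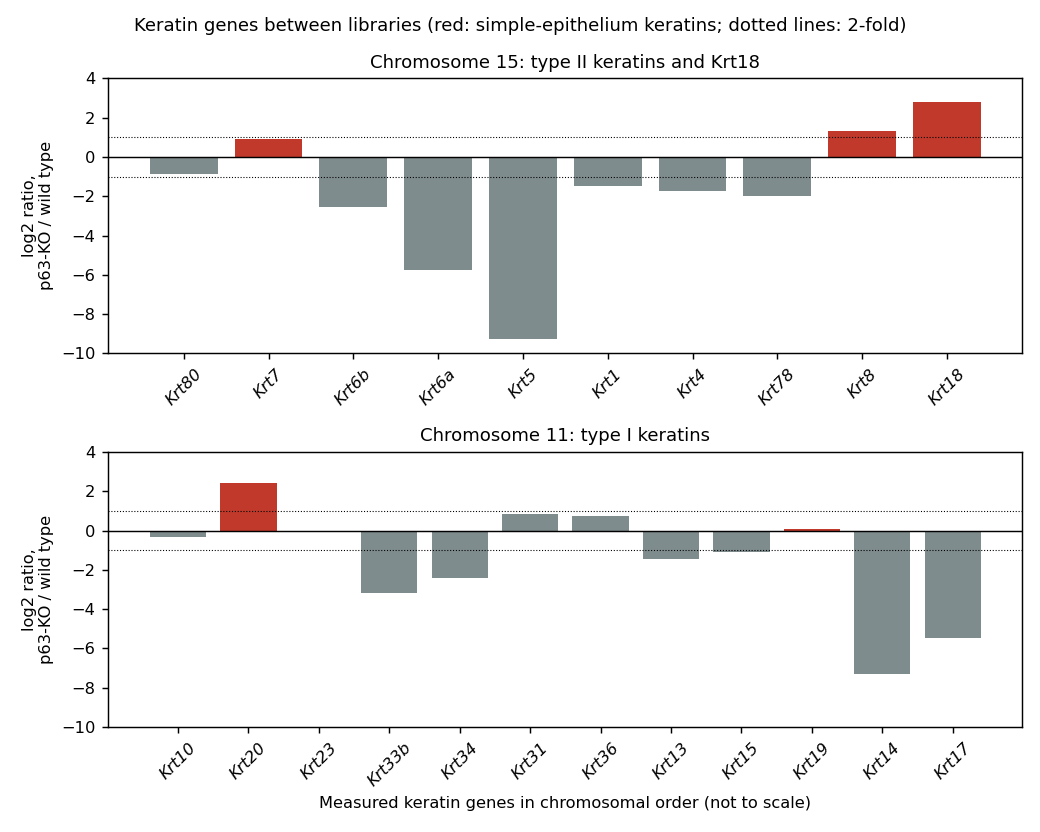
Log2 ratio of p63-KO over wild-type CPM for each measured keratin gene, placed in gene order along the type II cluster of chromosome 15 (with Krt18) and the type I cluster of chromosome 11. The 6 measured keratins between Krt7 and Krt8 all lie below -1, while Krt8, Krt18 and Krt20 lie above 1.

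Over the 9 wild-type clusters, levels of Krt8 and Krt18 had a Pearson correlation of 0.97, and over the 10 p63-KO clusters 0.90 (on log2 CPM with 1 added, as a description, since clusters of a library share its depth and preparation). Over clusters Krt7 correlated with the other members at 0.89 to 0.95 in wild type, and at -0.11 to 0.17 in p63-KO, where its range was 1.88-fold. Over single cells its r with them was 0.17 to 0.58 in wild type and 0.16 to 0.36 in p63-KO. Among the other 4 members r was 0.88 to 0.95 over the p63-KO clusters, and all 4 had their lowest levels in clusters 2 and 7. The order of the remaining clusters differed between these members.

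By the same measure over all 19 clusters, and among 6880 candidate genes, the genes most like each member were taken. For Krt8 they were the tight junction genes Tjp3 (r = 0.96) and Cldn3, with Lypd2, Zfp36 and Bspry. For Krt18 they were Gak (r = 0.97), the myosin gene Myh14, the class I histocompatibility gene H2-K1, Mea1 and Styk1. H2-K1 and Myh14 also stood among those of Krt7, after Taok3 (r = 0.96) and Trp53inp2 and with Scamp2. That likeness held in wild type and not in p63-KO: within the p63-KO clusters the 5 genes had r of -0.04 to 0.49 with Krt7. Krt19 was most like the tissue factor gene F3 (r = 0.98), Cyp2f2, Emp1 and Plpp2, and Krt20 most like the mesothelin gene Msln (r = 0.95), Usp6nl, Kctd14, Chst9 and Tnfsf13. With Spearman's rho 7 of the 25 genes taken stayed.

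The wild-type level of these keratins also differed between cells with Xist RNA only and cells with Y-linked RNA only, which come from different embryos. In wild type Krt18 had 171 CPM in 3337 Xist-only and 103 CPM in 1458 Y-only cells, Krt8 581 and 429, Krt7 652 and 510, and Krt19 1027 and 849 CPM. In p63-KO the Y-only cells (396) had the slightly higher values, with 1074 against 1026 CPM for Krt18 and 1389 against 1332 for Krt8. The contrast between the libraries had the same direction in both subsets for Krt7, Krt8, Krt18 and Krt20. Krt19 had a log2 ratio of 0.41 in Y-only cells and 0.01 in Xist-only cells, where the intervals of the levels overlap. Embryo, sex and the makeup of layers cannot be told apart here.

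Other genes of columnar epithelium were higher together with the simple keratins. Of 24 listed genes, 20 were measured, and p63-KO had 12 of them higher by 2-fold or more and 0 lower (median log2 ratio 1.24), beside 14.1% and 7.87% of all measured genes. Among these 12 were Epcam and St14, which also served as markers to call cells epithelial-like, and the desmosome gene Pkp2. Of those named next, Muc1, Prom1 and Tspan1 reached the minimum of 5 CPM only in p63-KO. Muc1, a membrane mucin, had 1.79 CPM in wild type and 224 in p63-KO. Prom1, a protein of apical membrane protrusions, had 0.902 and 70.7 CPM, and the tetraspanins Tspan1 and Tspan8 had 2.14 and 67.2, and 7.46 and 155 CPM.

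Proteins that tie keratin filaments to junctions and to other filaments were mostly level or lower. Of 23 listed intermediate filament and linker genes 16 were measured, with 1 at least 2-fold higher, 5 lower and a median log2 ratio of -0.38, beside 14.1% higher and 7.87% lower over all measured genes. Dst, which anchors filaments at hemidesmosomes, had 306 CPM in wild type and 79.9 in p63-KO. The plakin family genes Evpl, Eppk1, Dsp and Ppl had log2 ratios of -1.90, -1.84, -1.30 and -1.13. With Dst these were the 5 lower genes, so all of the lower ones were linkers. The neuronal intermediate filament gene Ina was the 1 higher gene, with 0.698 and 6.51 CPM, and so reached 5 CPM only in p63-KO. The count of higher linker genes was 0 without the ciliated-like, neuroendocrine-like and ionocyte-like clusters.

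Of 30 listed transcription factors of epithelia 26 were measured, 5 at least 2-fold higher, 3 lower and 18 neither (median log2 ratio 0.17), beside the 14.1% and 7.87% of all measured genes. Spdef, a factor of mucous cells, had 0.364 and 25.1 CPM, the forkhead factor Foxa2 13.6 and 50.2, and Fos, an AP-1 subunit induced by stress and dissociation as well, 425 and 1773 CPM. Tfap2a, an AP-2 factor, had 13.7 and 0.0835 CPM, and Grhl3, a grainyhead factor of surface epithelia, 60.0 and 17.7 CPM. The remaining lower gene was Trp63, the targeted gene itself, with 303 and 118 CPM. Spdef reached 5 CPM only in p63-KO and Tfap2a only in wild type. The higher count moved between 3 in Xist-only cells and 8 in Y-only cells.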

How the data were processed

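The submitters' processing notes name Cell Ranger 7.1.0 with mm10 as the build, and per the labels' protocols a droplet kit for 3' ends was used on epithelium freed of muscle. The annotation release was not given in the sources used here, nor was the use of intronic reads. What the authors deposited are whole-number UMI counts per gene and barcode, for 6034 wild-type (76472445 UMIs) and 2821 p63-KO barcodes (86504624 UMIs).

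Barcodes that passed the filter numbered 5787 and 2422. Doublets were scored against simulated ones and removed at 0.8% per 1000 cells (268 and 47), so some may remain: both Xist and Y-linked RNA were found in 389 of the 5365 epithelial-like cells of wild type and 353 of the 1680 of p63-KO, and the parts of doublets and free RNA in this were not tested. Cells of both libraries were clustered jointly without integration (2000 variable genes, 30 principal components, 20 neighbours, Leiden resolution 1.0), named from fixed markers, and epithelial-like cells were clustered again per library at resolution 0.6. Keratins were left out of the variable genes and markers. Of the wild-type cells after doublet removal 97.2% were epithelial-like, and of the p63-KO cells 70.7%.

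UMIs were summed per library or cluster and given as CPM. Genes with at least 5 CPM in either group count as measured. Log2 ratios have 1 CPM added and folds have none. Folds have exact conditional binomial intervals and shares of cells have exact Clopper-Pearson intervals, at 95%. With 1 library per genotype no test was made and no p given. The members, gene lists and settings were chosen with earlier results of these data known. Genes named outside the members were the keratins with at least 50 CPM, the 4 largest log2 ratios per list with up to 2 in the other direction, and the 5 best correlated genes per member (at least 50 CPM in a cluster, clusters of at least 30 cells), of which 1 is not reported here. Checked on simulated counts, the comparison of epithelial-like cells recovered 100% of 200 planted changes among 10664 genes. Each planted change was well beyond the 2-fold mark, and the counts varied by sampling alone. The check therefore does not cover changes near that mark or differences between embryos. All 53 keratin identifiers matched the annotation. Analyses used Python 3.11.15, numpy 2.4.6, scipy 1.17.1, pandas 2.3.3, scikit-learn 1.9.0, igraph 0.11.9, leidenalg 0.10.2 and matplotlib 3.10.9.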

Additional observations from a re-analysis of the deposited data

How the results depend on the processing

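No paired analysis was possible because each genotype has 1 library. With 1 library per genotype, differences of genotype, litter, dissection and depth cannot be told apart, and intervals cover counting error only. No direction turned for the 3 members called higher, and their count stayed between 3 and 4 under 14 alternatives. Krt19 passed from 0.08 to -0.06 (log2) without cell cycle clusters (wild-type 4, 5 and 7, p63-KO 3 and ionocyte-like 7), and its direction is not called.

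The median log2 ratio of the members, 1.33, was 1.40 with a stricter cell filter (at least 1000 genes and 2000 UMIs, at most 5% mitochondrial UMIs), 1.27 in cells with an Epcam or Cdh1 UMI, 1.54 with every cell weighted equally and when thinned to 2000 UMIs, 1.30 without the 50 most abundant genes in the total, 1.46 without the ciliated-like, neuroendocrine-like and ionocyte-like clusters, 1.07 without cell cycle clusters, 1.20 and 1.69 in cells with Xist or Y-linked RNA only, and 1.90 without clusters of high depth (median UMIs over 1.5 times that of the library), a setting chosen after the data had been seen.

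The members' percent of keratin UMIs in wild type was 8.40 with doublets kept, 8.06 with equal weights, 8.002 thinned, 8.36 without the ciliated-like, neuroendocrine-like and ionocyte-like clusters, 8.75 without cell cycle clusters, 9.08 and 7.08 in Xist-only and Y-only cells and 7.25 without clusters of high depth. In p63-KO it was 33.8 with the stricter filter and 36.3, 35.9, 32.2, 33.2, 33.1, 37.1 and 34.5 in the settings just named from equal weights on.

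Counts of type II keratins at least 2-fold higher were 2 with equal weights, when thinned, in Y-only cells and without clusters of high depth, since Krt7 passed 2-fold, and 3 such keratins were lower, not 6, with a minimum of 20 CPM, which leaves fewer genes. Higher genes of the intermediate filament and linker list numbered 4 in cells with Epcam or Cdh1 and 3 from 1 CPM. They numbered 2 with equal weights, without cell cycle clusters and without clusters of high depth. They numbered 0 from 20 CPM and without the ciliated-like, neuroendocrine-like and ionocyte-like clusters. Higher transcription factors numbered 8 when thinned and in Y-only cells and 3 in Xist-only cells. The cause was not tested.

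The fold from the highest to the lowest wild-type cluster was, at resolution 0.3, 11.4 for Krt7, 10.8 for Krt8 and 21.0 for Krt18, and with keratins kept among the variable genes 14.2, 10.7, 20.8 and, for Krt19, 3.86. In p63-KO it was, at resolution 0.3, 1.77 for Krt7, 3.31 for Krt8 and 15.1 for Krt19, at resolution 1.0 it was 3.72, 8.34, 8.50 (Krt18) and 34.6, and with keratins kept 2.11 for Krt7 and 4.11 for Krt8.

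Shares of cells with a UMI depend on depth. Thinned to 4000 UMIs they were 58.5% and 95.7% for Krt7 in wild type and p63-KO, 59.9% and 94.4% for Krt8, 24.8% and 90.8% for Krt18, 87.1% and 81.4% for Krt19 and 1.25% and 8.30% for Krt20. With no thinning they were 79.5% and 98.5%, 78.1% and 98.5%, 42.1% and 97.4%, 95.3% and 91.3%, and 3.52% and 34.9%.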
